A study of Mus musculus with 9 samples.

Results

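Transcripts of 9 genes that make or remove phosphoinositides, or that act on the kinase AKT downstream of them, were followed in splenic regulatory T cells (Treg cells). The genes were found in the count table by symbol: the class I phosphoinositide 3-kinase (PI3K) genes Pik3cd and Pik3r1, the PI3K inhibitor gene Pik3ip1, the class III kinase gene Pik3c3, the lipid phosphatase genes Inpp5d, Inpp4b, Synj1 and Synj2, and the AKT phosphatase gene Phlpp1. All 9 were present among the 26683 genes of the table, and all 9 were among the 12738 genes with enough counts to be tested. The KO group held 4 mice of the genotype EsrrgNf/f.Foxp3YFP-Cre, in which Cre recombinase and a yellow fluorescent protein are made from Foxp3, so that the floxed Esrrg gene is a target for deletion in cells that express Foxp3. The WT group held 5 mice of the genotype B6N.Foxp3YFP-Cre, which carry the same Foxp3 reporter and Cre without the floxed gene. All mice were females of 2 to 3 months per the labels, each library came from 1 mouse, and the RNA came from CD4+ Foxp3+ cells. The comparison asks which transcripts differ in Treg cells when Cre meets the floxed Esrrg gene, which encodes estrogen-related receptor gamma. The genotype names also differ in the strain part, so strain or colony and genotype cannot be told apart.

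Class I PI3K is recruited to the T cell receptor, to costimulatory receptors and to cytokine receptors, and turns the membrane lipid PIP2 into PIP3, which draws AKT and other kinases to the membrane. In T cells AKT restrains FOXO transcription factors, and Treg cells are known to keep this pathway at a lower activity than conventional T cells. PIP3 is removed by lipid phosphatases, among them SHIP1 (Inpp5d), and INPP4B acts on the lipid that SHIP1 leaves.

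The libraries held 15386929 to 17425634 counts in KO and 15269014 to 16874301 in WT. Esrrg had 0 counts in every KO and WT library, where 3 counts equal 0.172 to 0.196 CPM (counts per 1000000 counts of the library), so its loss was not detectable at this depth. The library labelled KO 4 had 27 counts of Xist, the RNA of the inactive X chromosome in females, against 27355 or more in each other library, which goes against its label as female. The 8 Treg cell markers, Foxp3 and Il2ra among them, summed to 4781 to 5248 CPM in KO and 4856 to 5143 CPM in WT, and 0 of 8 passed the test. Markers of plasma cells, neutrophils, macrophages and monocytes, and B cells were highest in KO 1 and KO 4. The 9 plasma cell markers found in the table summed to 2568 and 6455 CPM in these libraries, to 1103 and 1388 CPM in KO 2 and KO 3, and to 927 to 1337 CPM in WT. Neutrophil markers (9 of 9 in the table) summed to 44.4 and 140 CPM in KO 1 and KO 4, to 1.84 and 7.60 CPM in KO 2 and KO 3, and to 1.94 to 7.60 CPM in WT. Macrophage and monocyte markers (9 of 10 in the table) ran from 27.0 to 146 CPM in KO and from 26.1 to 78.2 CPM in WT, and B cell markers (9 of 9) from 22.6 to 38.3 CPM and from 20.4 to 26.5 CPM. The sums of the other lists covered similar ranges, 11.9 to 13.9 CPM in KO and 9.84 to 13.6 CPM in WT for CD8 T cell markers, and 8.01 to 11.4 CPM and 8.58 to 10.2 CPM for NK cell markers (3 of 4 in the table).

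Synj2 was the gene of the set with the clearest change, at 54.1% of its WT level in KO, and Pik3c3 fell by a small step to 88.5%. By edgeR's quasi-likelihood test 2 of 9 genes passed an adjusted p of 0.05, both lower in KO and 0 higher, while 3.28% of all tested genes passed, 1.88% lower and 1.40% higher. The KO and WT libraries did not overlap for 3 of 9 genes, Synj2, Pik3c3 and Inpp4b, each lower in KO, against 5.16% of all tested genes that were separated in this direction and 3.94% in the other. The log2 fold change (KO over WT) was negative for 8 of 9 genes, with a median of -0.10, against 48.5% and a median of 0.0052 over all tested genes. The 9 genes were chosen with earlier results of these data known, so these shares are a description and do not test the set. In bulk RNA, a smaller number of cells that express a gene cannot be told apart from less RNA in each cell.

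**Figure D1:**
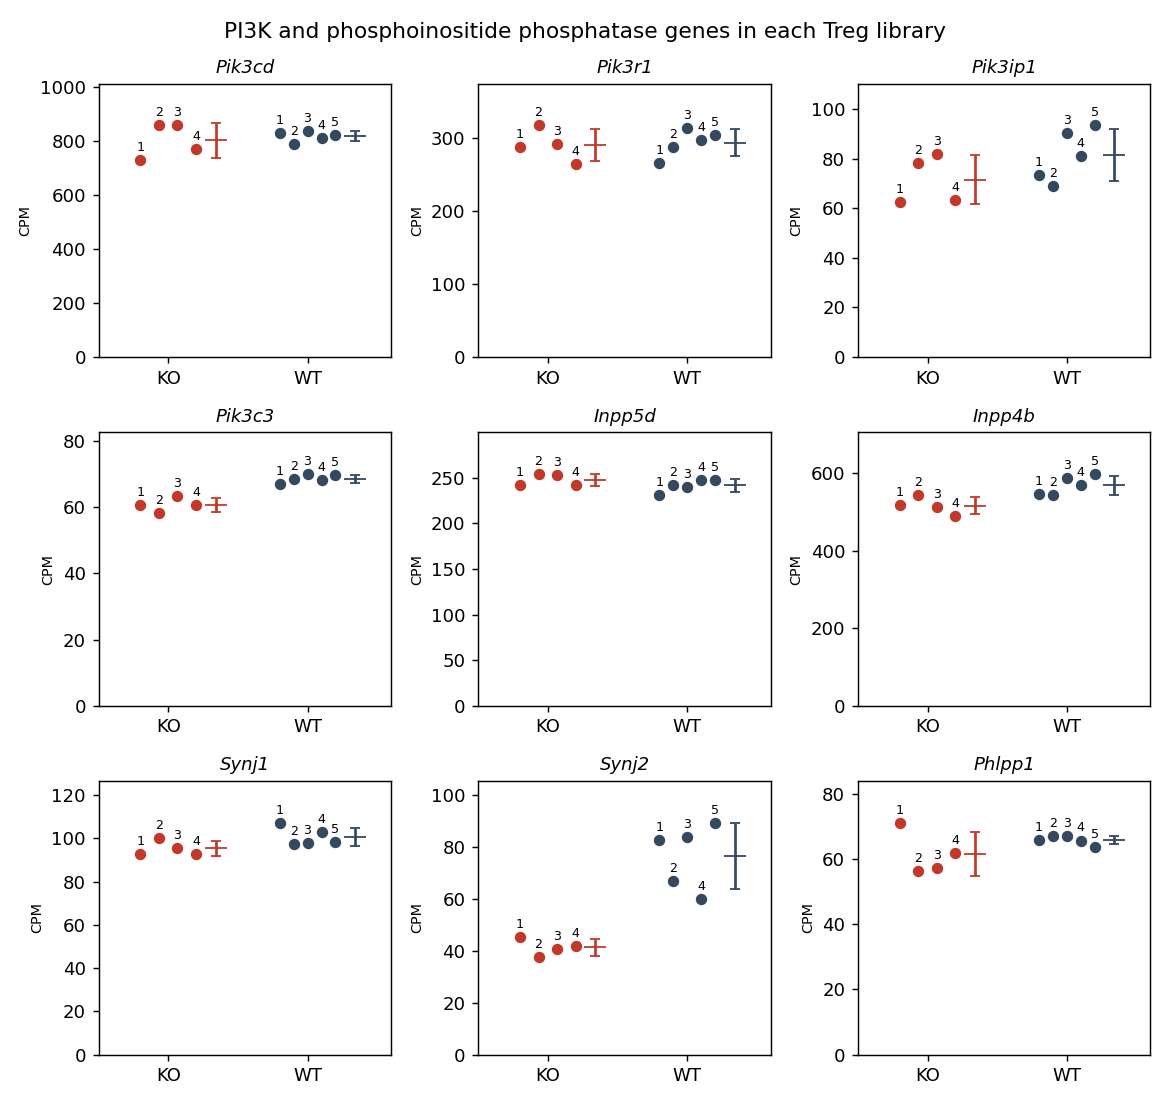
CPM of each of the 9 genes (vertical axes, starting at 0) in the 4 KO libraries and the 5 WT libraries, with replicate numbers beside the points, and mean ± SD to the right of each group. Synj2 sits at 37.6 to 45.4 CPM in KO and at 59.7 to 89.1 CPM in WT, while Pik3cd and Phlpp1 spread more widely among the KO libraries than among the WT libraries.

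Levels of different genes were compared per kilobase of the longest annotated transcript. Pik3cd, which encodes the catalytic subunit p110-delta found mainly in leukocytes, was the most abundant, at 163 ± 13.3 CPM per kilobase in KO and 166 ± 3.82 in WT (SD, n = 4 and 5). Inpp4b followed with 63.9 ± 2.75 in KO and 70.5 ± 3.00 in WT, then Inpp5d with 50.1 ± 1.31 and 48.9 ± 1.40, and Pik3r1 with 40.8 ± 3.04 and 41.3 ± 2.60. Pik3ip1 (27.8 ± 3.89 in KO, 31.7 ± 4.09 in WT) and Pik3c3 (18.6 ± 0.635 in KO, 21.1 ± 0.368 in WT) lay in the middle. In WT the 3 lowest were Synj1 at 14.2 ± 0.599, Synj2 at 13.5 ± 2.22 and Phlpp1 at 10.6 ± 0.221 CPM per kilobase, and the first 2 of these lay within 1 SD of each other. In KO the order at the low end was different, with Synj1 at 13.4 ± 0.481, Phlpp1 at 9.88 ± 1.08 and Synj2 lowest at 7.29 ± 0.570. With the mean length of the annotated transcripts in place of the longest, Pik3cd and Inpp4b remained first and second in WT, but Pik3r1 came before Inpp5d and Pik3c3 was lowest.

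The class I kinase genes did not pass the test. Pik3cd (mm10, chromosome 4, 149649168 to 149702571, minus strand) had 729, 859, 859 and 770 CPM in KO 1 to KO 4, and 830, 789, 836, 811 and 823 CPM in WT 1 to WT 5. The KO libraries lay on both sides of the WT range, KO 1 and KO 4 below every WT library and KO 2 and KO 3 above every WT library. The log2 fold change was -0.02 ± 0.06 (SE, n = 4 and 5, edgeR adjusted p = 0.835), with a 95% interval of -0.14 to 0.10. It was 0.0001 without KO 4 and 0.08 without KO 1 and KO 4 (edgeR adjusted p = 0.354), so its direction rests on these libraries, which also held the highest sums of plasma cell and neutrophil markers; their part in this pattern was not tested.

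Pik3r1 (chromosome 13, 101680563 to 101768217, minus strand) encodes the regulatory subunit p85-alpha, which stabilizes the catalytic subunit and holds it inactive until a receptor binds. It had 287, 317, 291 and 265 CPM in KO, and 265, 288, 314, 297 and 304 CPM in WT. The groups covered nearly the same range, and the log2 fold change was -0.02 ± 0.06 (SE, edgeR adjusted p = 0.902, 95% interval -0.14 to 0.11). The ratio of Pik3r1 to Pik3cd counts was 0.362 ± 0.0255 in KO and 0.359 ± 0.0226 in WT (SD, n = 4 and 5).

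Pik3ip1 (chromosome 11, 3330401 to 3342971, plus strand) encodes a transmembrane protein that binds the catalytic subunit of class I PI3K and restrains it in T cells. It had 62.6, 78.2, 82.1 and 63.5 CPM in KO, and 73.4, 69.2, 90.5, 81.1 and 93.5 CPM in WT. KO 1 and KO 4 were again below every WT library, while KO 2 and KO 3 lay inside the WT range. The log2 fold change of -0.19 ± 0.12 did not pass (SE, edgeR adjusted p = 0.394, 95% interval -0.45 to 0.08), and it was -0.01 without KO 1 and KO 4. In a fit with a term for the mean log2 CPM of B cell, plasma cell, neutrophil, macrophage and monocyte markers it was -0.04.

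Pik3c3 fell in KO by a small and even step. This gene (chromosome 18, 30272747 to 30348126, plus strand) encodes VPS34, the class III enzyme that makes the lipid PI3P on endosomes and autophagosomes. It had 60.6, 58.2, 63.2 and 60.7 CPM in KO, and 67.0, 68.4, 69.9, 68.0 and 69.6 CPM in WT. Every KO library lay below every WT library, and the SD was 2.07 CPM in KO and 1.20 CPM in WT, the smallest spread among the 9 genes in WT relative to the mean (1.75%). Its log2 fold change was -0.18 ± 0.04 (SE, edgeR adjusted p = 0.0272, 95% interval -0.26 to -0.10). The value stayed between -0.20 and -0.16 in the 9 fits that each left out 1 library, but only 4 of them passed: the edgeR adjusted p was 0.0571 when KO 1 was left out, 0.0918 for KO 4, 0.0808 for WT 3, 0.0647 for WT 4 and 0.0731 for WT 5. Without KO 1 and KO 4 together it was -0.16 (edgeR adjusted p = 0.172).

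**Figure D2:**
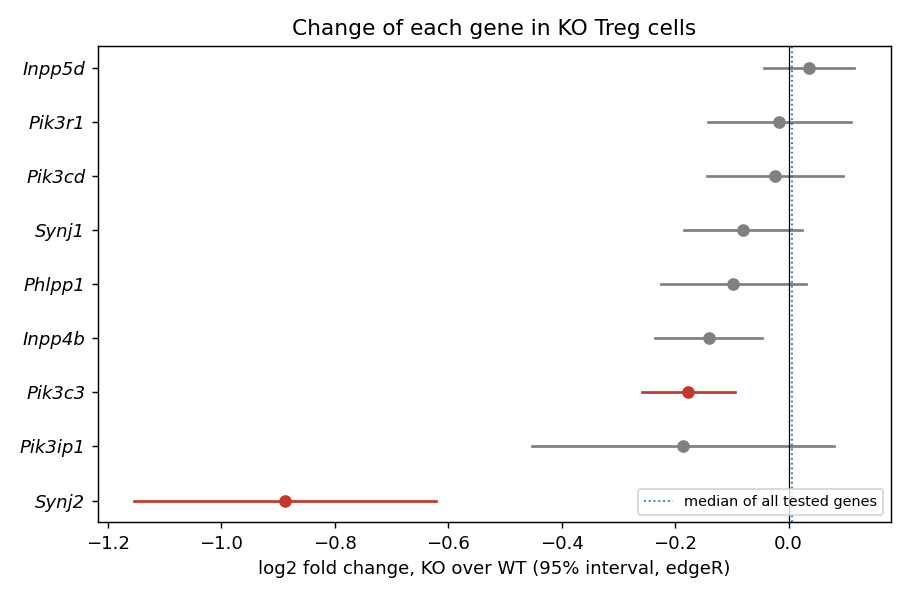
Log2 fold change (KO over WT) of each of the 9 genes with its 95% interval from edgeR, against the median of all tested genes (dotted line). Red marks the 2 genes past an adjusted p of 0.05, Synj2 at -0.89 and Pik3c3 at -0.18; the intervals of the others cover 0 except that of Inpp4b.

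The genes of SHIP1, which acts on PIP3, and of INPP4B, which acts on the lipid SHIP1 leaves, were measured at high depth. Each library held 3777 or more counts of Inpp5d and 7866 or more of Inpp4b. Inpp5d (chromosome 1, 87620312 to 87720507, plus strand) encodes SHIP1, a phosphatase of blood cells. It had 242, 254, 252 and 242 CPM in KO, and 231, 242, 239, 247 and 248 CPM in WT. It was the only one of the 9 with a positive log2 fold change, 0.04 ± 0.04 (SE, edgeR adjusted p = 0.602), and its 95% interval of -0.04 to 0.12 is narrow. KO 2 and KO 3 were above every WT library, whereas KO 1 and KO 4 were inside the WT range.

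Inpp4b (chromosome 8, 81342556 to 82127914, plus strand) encodes the phosphatase that acts on the product of SHIP1. It had 519, 542.5, 513 and 488 CPM in KO, and 545, 543.5, 587, 570 and 597 CPM in WT. The groups did not overlap, but KO 2 and WT 2 were almost equal. Its change of -0.14 ± 0.04 on the log2 scale (SE, 95% interval -0.24 to -0.05) did not pass the threshold (edgeR adjusted p = 0.0944). It passed by DESeq2 (adjusted p = 0.0257) and in edgeR without KO 2 (-0.17, adjusted p = 0.0450), and it was -0.09 without KO 1 and KO 4 (edgeR adjusted p = 0.384). The ratio of Inpp4b to Inpp5d counts was 2.14, 2.14, 2.03 and 2.02 in KO, and 2.36, 2.25, 2.45, 2.31 and 2.41 in WT. This ratio, which does not depend on how the libraries were scaled, averaged 2.08 ± 0.0642 in KO and 2.36 ± 0.0822 in WT (SD, n = 4 and 5), and the groups did not overlap. It is given without a test, because the pair was formed after the values of both genes were known.

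Of the synaptojanin genes, Synj2 passed the test and Synj1 did not. Synaptojanins carry a pair of phosphatase domains, a Sac domain and an inositol 5-phosphatase domain, and remove phosphates from PIP2 and other phosphoinositides; synaptojanin 1 is best known for the shedding of clathrin coats at nerve endings. Synj2 (chromosome 17, 5941280 to 6044290, plus strand) had 45.4, 37.6, 40.5 and 41.7 CPM in KO, and 82.7, 66.6, 83.9, 59.7 and 89.1 CPM in WT. Every KO library was below every WT library, and the WT libraries spread widely, with WT 2 and WT 4 lower than the other 3. The log2 fold change was -0.89 ± 0.12 (SE, n = 4 and 5, edgeR adjusted p = 0.00767), with a 95% interval of -1.15 to -0.62. It ran from -0.97 to -0.83 in the 9 fits that left out 1 library and passed in all 9, with adjusted p of 0.000587 to 0.0344. Without KO 1 and KO 4 together it was -0.96 and no longer passed (edgeR adjusted p = 0.0778), and in the fit with the marker term it was -0.94 (adjusted p = 0.0496). KO 2 and KO 3, whose sums of plasma cell and neutrophil markers were near the WT range, had the lowest levels of Synj2 among the 9 libraries. KO 4, with the highest of these sums, was close to KO 3 (41.7 and 40.5 CPM). The part of other cells in the change of Synj2 was not tested.

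Synj1 (chromosome 16, 90936092 to 91011308, minus strand) had 92.7, 99.9, 95.6 and 92.7 CPM in KO, and 107, 97.3, 97.6, 103 and 98.3 CPM in WT. KO 1, KO 3 and KO 4 were below every WT library, KO 2 lay inside the WT range, and the log2 fold change of -0.08 ± 0.05 did not pass (SE, edgeR adjusted p = 0.352, 95% interval -0.18 to 0.02). The intervals of Synj1 and Synj2 were apart, although the difference between the genes was not itself tested. The ratio of Synj2 to Synj1 counts was 0.490, 0.376, 0.424 and 0.449 in KO, and 0.772, 0.685, 0.859, 0.579 and 0.906 in WT. Its mean was 0.435 ± 0.0475 in KO and 0.760 ± 0.132 in WT (SD, n = 4 and 5), so within the same libraries the balance of the synaptojanin transcripts was lower in KO in each mouse than in any WT mouse; this ratio, too, is given without a test.

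**Figure D3:**
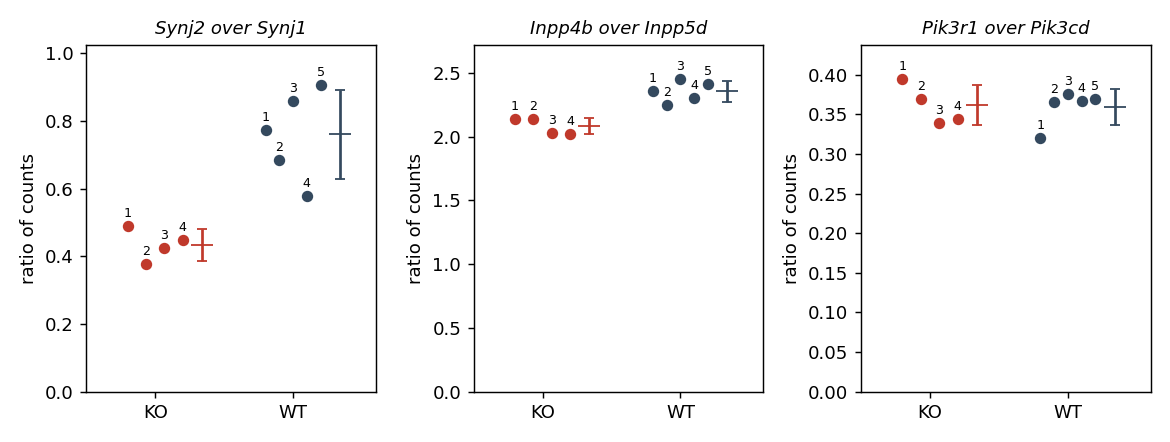
Ratios of counts within each library (vertical axes, starting at 0) for Synj2 over Synj1, Inpp4b over Inpp5d and Pik3r1 over Pik3cd, with replicate numbers beside the points and mean ± SD to the right of each group. The KO and WT points are apart in the first 2 panels, with means of 0.435 and 0.760 for the synaptojanins and 2.08 and 2.36 for the phosphatases, and overlap in the third.

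The start regions of the synaptojanin genes are given because Synj2 fell and its paralogue did not pass. That of Inpp4b is given because it was the other phosphatase gene among the 9 whose groups were apart. Each sequence is a RefSeq window (GRCm38.p6, 5′ to 3′ on the strand of the gene) of 250 bases before the start site and 50 bases after it, and the 50 transcribed bases are in capitals. The windows are chr17:5975330-5975629 (plus strand) for Synj2, chr16:91011259-91011558 (minus strand) for Synj1 and chr8:81342312-81342611 (plus strand) for Inpp4b.
Synj2: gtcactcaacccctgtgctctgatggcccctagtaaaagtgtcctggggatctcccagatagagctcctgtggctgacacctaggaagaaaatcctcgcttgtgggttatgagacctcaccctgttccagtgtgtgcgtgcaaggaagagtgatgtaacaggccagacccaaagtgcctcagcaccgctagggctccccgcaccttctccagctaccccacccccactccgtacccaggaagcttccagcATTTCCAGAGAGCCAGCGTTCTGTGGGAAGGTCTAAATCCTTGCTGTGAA
Synj1: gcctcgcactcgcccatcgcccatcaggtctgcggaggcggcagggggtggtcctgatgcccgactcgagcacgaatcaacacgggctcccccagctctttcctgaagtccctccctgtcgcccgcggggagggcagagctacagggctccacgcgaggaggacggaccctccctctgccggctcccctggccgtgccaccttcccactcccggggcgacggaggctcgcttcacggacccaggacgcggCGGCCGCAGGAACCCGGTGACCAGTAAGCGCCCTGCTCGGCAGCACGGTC
Inpp4b: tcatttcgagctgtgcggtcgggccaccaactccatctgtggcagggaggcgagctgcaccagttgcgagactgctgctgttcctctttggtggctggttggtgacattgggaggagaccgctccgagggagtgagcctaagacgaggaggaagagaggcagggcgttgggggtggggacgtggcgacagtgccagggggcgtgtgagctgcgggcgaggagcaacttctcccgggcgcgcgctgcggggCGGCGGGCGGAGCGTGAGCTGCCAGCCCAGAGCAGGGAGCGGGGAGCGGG
The Synj2 window holds 6 CG dinucleotides and 56.0% G and C, the Synj1 window 30 and 71.3%, and the Inpp4b window 25 and 68.3%, against medians of 7 and 52.7% over 32851 RefSeq windows. The RefSeq start of Synj2 lies 34.3 kb inside the gene as GENCODE M21 draws it, and 2 of its 16 GENCODE transcripts begin within 100 bases of it, so counts by gene symbol do not show which start was used. Synj1 has a second RefSeq window, not printed, with 36 CG dinucleotides and 74.0% G and C, and 5 of its 12 GENCODE transcripts begin within 100 bases of that start, against 1 for the start printed. Windows of 8 of the 9 genes were searched, 13 in all, and no window was available for Pik3c3. The windows of Synj2 overlap each other, as do those of Synj1. The extended half-site of estrogen-related receptors, TNAAGGTCA, searched on both strands, was in 0 of these 13 windows and in 1.28% of all windows, and the FOXO core GTAAACA was in 0 of 13 and in 3.65%. With shares this low over all windows, 0 of 13 does not set these windows apart. These letters not being in a window says nothing about binding of the factors elsewhere in the genes.

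Phlpp1 (chromosome 1, 106171752 to 106394250, plus strand) encodes a phosphatase that acts not on lipids but on AKT itself, taking a phosphate off the hydrophobic motif. It had 71.0, 56.3, 57.1 and 61.7 CPM in KO, and 65.7, 67.1, 66.9, 65.6 and 63.6 CPM in WT. KO 1 was above every WT library and the other 3 KO libraries were below every WT library. Its change of -0.10 ± 0.06 (log2) did not pass (SE, edgeR adjusted p = 0.361, 95% interval -0.23 to 0.03). It was -0.17 without KO 1 (edgeR adjusted p = 0.0655) and -0.20 without KO 1 and KO 4 (adjusted p = 0.0867).

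Genes with other roles in the pathway were taken from 8 lists of 75 genes, of which 72 could be tested. By edgeR 0 of 72 passed, against 3.28% of all tested genes, while 13 had an unadjusted p under 0.05 (21.6% of all tested genes did) and DESeq2 called 6, with 6.99% of all genes it tested called. Of the 72, whose values in brackets are log2 fold changes, 51 had a negative log2 fold change and 21 a positive one, with a median of -0.07. The negative share was 70.8%, against 48.5% of all tested genes. The groups did not overlap for 9 of the 72, all lower in KO, which is 12.5%. Of all tested genes 9.10% were separated in both directions and 5.16% lower in KO. The lists were chosen with earlier results of these data known, so these shares do not test them. The 3 untested genes, Pik3r6, Pik3c2g and Inpp5j, had means of at most 0.278 CPM in KO and 0.287 CPM in WT.

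Of the other class I genes 0 of 7 tested passed, 3 positive and 4 negative, with a median of -0.05. Pik3ap1, an adaptor best known from B cells, had the smallest p, at 4.46 ± 1.45 CPM in KO and 3.42 ± 0.511 CPM in WT (SD, log2 fold change 0.38, edgeR adjusted p = 0.304), and its 5.80 and 5.65 CPM in KO 1 and KO 4, the libraries with the highest B cell marker sums, stood above the 3.23 and 3.18 CPM in KO 2 and KO 3; the part of B cells was not tested. Pik3ca, a catalytic subunit of broad expression, averaged 127.5 ± 6.14 CPM in KO and 134 ± 4.89 CPM in WT (SD, -0.08, edgeR adjusted p = 0.367). Class II enzymes and partners of VPS34 had 0 of 6 passing and 6 of 6 negative (median -0.07). Pik3c2a, a class II kinase, had 94.1 ± 2.72 CPM in KO and 102 ± 2.01 CPM in WT (log2 fold change -0.12, edgeR adjusted p = 0.0834, groups apart), and Pik3c2b had 11.5 ± 0.562 and 12.6 ± 0.446 CPM (-0.14, adjusted p = 0.308, groups apart).

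Kinases that make the substrates had 0 of 11 passing, 5 positive and 6 negative (median -0.04). The genes with the smallest p encode kinases that make PIP2: Pip5k1c, at 175 ± 6.81 CPM in KO and 192 ± 4.43 CPM in WT (SD, log2 fold change -0.13, edgeR adjusted p = 0.0944), and Pip5k1a, at 76.5 ± 3.92 and 84.6 ± 5.41 CPM (-0.15, adjusted p = 0.158). Other inositol 5-phosphatases had 0 of 6 passing and 4 of 6 negative (median -0.14). Inpp5a, whose enzyme acts on soluble inositol phosphates, had 17.9 ± 0.297 CPM in KO and 21.5 ± 1.87 CPM in WT (-0.27, edgeR adjusted p = 0.0648), and Inpp5k had 132 ± 7.97 and 147 ± 4.50 CPM (-0.16, adjusted p = 0.0716). Both had groups that did not overlap.

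The remaining phosphatases had 0 of 15 passing and 12 of 15 negative (median -0.06). Mtmr3, a myotubularin that acts on PI3P, came closest to the threshold of all 72, at 371 ± 20.2 CPM in KO and 414 ± 14.8 CPM in WT (SD, -0.16, edgeR adjusted p = 0.0590), and Inpp5f, a Sac phosphatase, was at 156 ± 1.93 and 168 ± 7.32 CPM (-0.11, adjusted p = 0.138). Groups were apart for Mtmr3 and Inpp5f.

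In the AKT module 0 of 10 passed, with 4 positive and 6 negative (median -0.07). Foxo1, a transcription factor gene, averaged 419 ± 32.2 CPM in KO and 451 ± 13.0 CPM in WT (SD, -0.11, edgeR adjusted p = 0.273), with overlapping groups. Genes that FOXO factors are known to sustain had 0 of 8 passing and 8 of 8 negative (median -0.13), against 48.5% negative over all tested genes. Ccr7 was at 214 and 208 CPM in KO 1 and KO 4, below every WT library. In KO 2 and KO 3 it was at 284 and 261 CPM, inside the WT range. S1pr1 had the same pattern, while Ccng2 was inside the WT range in every KO library. The part of other cells in these genes was not tested. Among the 8, the interleukin-7 receptor gene Il7r averaged 155 ± 10.4 CPM in KO and 182 ± 19.6 CPM in WT (SD, -0.23, edgeR adjusted p = 0.125). Proteins that bind phosphoinositides had 0 of 9 passing, 4 positive and 5 negative (median -0.03), with Adap1 at 26.4 ± 7.35 CPM in KO and 21.1 ± 2.03 CPM in WT (0.33, edgeR adjusted p = 0.276) and the adaptor gene Dapp1 at 96.5 ± 5.93 and 90.5 ± 3.88 CPM (0.09, adjusted p = 0.279). Adap1 was at 35.6 and 29.1 CPM in KO 1 and KO 4, but at 20.8 and 20.1 CPM in KO 2 and KO 3, inside the WT range, and its log2 fold change was 0.15 without KO 1 and -0.03 without KO 1 and KO 4; the part of other cells in this was not tested. Among the genes DESeq2 called were Inpp5k, Mtmr3, Pik3c2a and Pip5k1c, each lower in KO, with DESeq2 adjusted p of 0.00571 (Mtmr3) to 0.0364 (Pik3c2a).

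**Figure D4:**
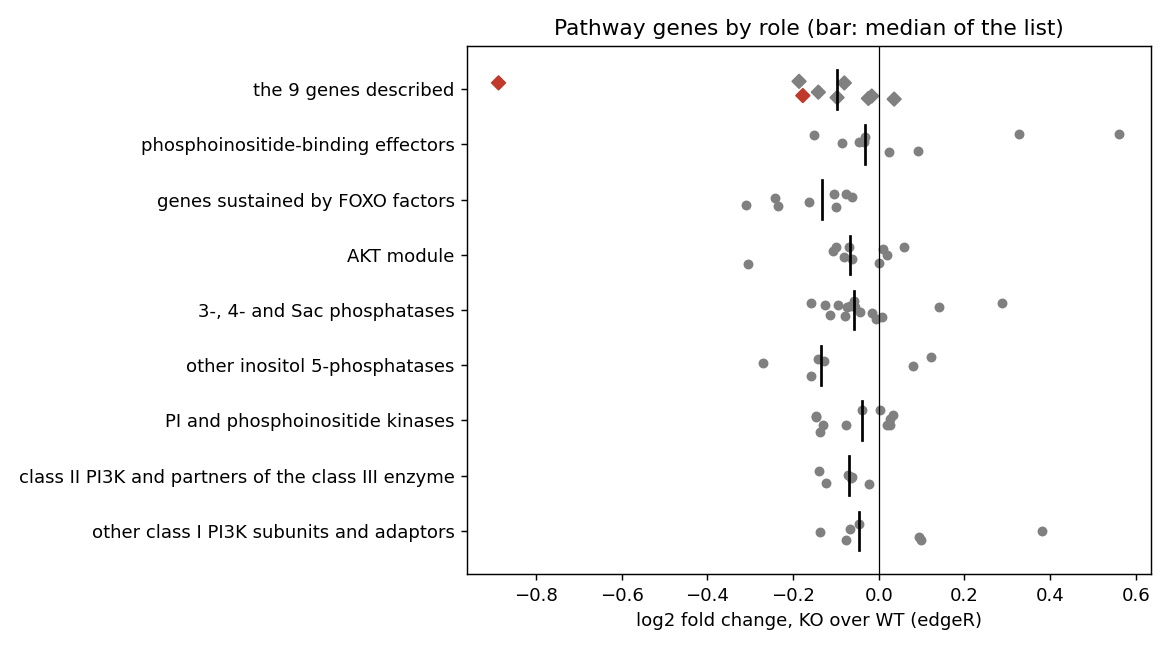
Log2 fold change (KO over WT, edgeR) of 72 tested pathway genes in 8 lists by role and, in the top row, of the 9 genes described (diamonds; red, past an adjusted p of 0.05). Vertical bars are medians, which run from -0.14 to -0.03 in the lists, and Synj2 at -0.89 lies outside the range of all 72 (-0.31 to 0.56).

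The positions of the 9 genes were compared with those of other called genes. They lie on 8 chromosomes, with Inpp5d and Phlpp1 on chromosome 1. Within 1 Mb of the 9 genes lay 111 other tested genes, of which 6 passed (5.41%, against 3.28% of all tested genes). Distances are between the nearest ends of the genes. Around Synj2, 2 of 19 passed: Tulp4, 62.1 kb away, was lower in KO (-0.15 ± 0.04, edgeR adjusted p = 0.0494), and the transcribed pseudogene Tmem181b-ps, 394 kb away, was higher (1.26 ± 0.12, adjusted p = 0.00106), a value that is uncertain where reads match more than 1 copy of Tmem181. Serac1, whose 3′ end overlaps that of Synj2 on the opposite strand, was at 5.99 CPM in KO and 6.28 CPM in WT (-0.07, edgeR adjusted p = 0.765), well under the level of Synj2. Near Phlpp1, the survival gene Bcl2 (-0.35, edgeR adjusted p = 0.0260) and Kdsr, a gene of sphingolipid synthesis (-0.20, adjusted p = 0.0430), were lower. Dgkd near Inpp5d (-0.25, edgeR adjusted p = 0.0227), which encodes a diacylglycerol kinase, and the pseudogene Pisd-ps1 near Pik3ip1 (-0.75, adjusted p = 0.00927) were lower as well. No tested gene started within 1 Mb of Pik3c3.

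**Figure D5:**
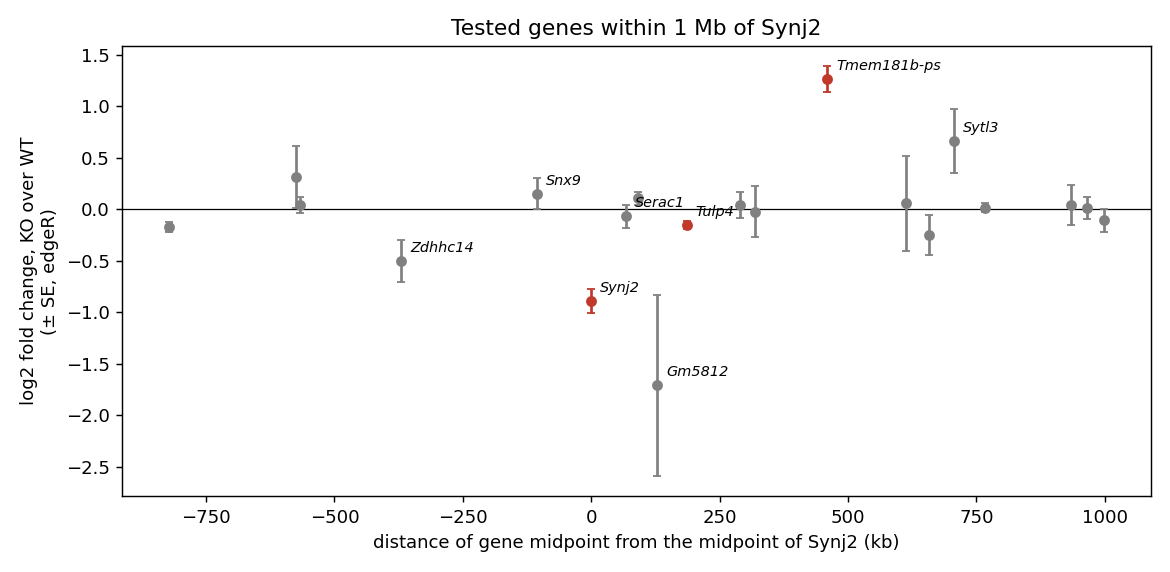
Log2 fold change (KO over WT, ± SE, edgeR) of Synj2 and of the 19 tested genes that start within 1 Mb of it, against the distance in kb between gene midpoints. Red marks genes past an adjusted p of 0.05: Synj2 at -0.89, Tulp4 at -0.15 and Tmem181b-ps at 1.26 lie among genes whose values were mostly near 0 or had wide errors.

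The genes whose pattern over the 9 libraries was most like that of each gene were found by Pearson's r of log2 CPM, as a description in which all points share their libraries and scaling. Each r was picked as among the highest of many candidate genes, and it includes any difference between the groups. Between Synj2 and Pik3c3, for example, r was 0.906, and it was 0.295 after the group means were removed. Synj2 was followed most closely by Trim24 (r = 0.972) and Zzef1 (0.965), and Pik3c3 by the clock output gene Dbp (0.964) and Fbxo17 (0.963). Trim24 (log2 fold change -0.24, edgeR adjusted p = 0.0203) and Dbp (-0.33, adjusted p = 0.0140) were themselves lower in KO. Inpp4b was closest to Utrn (0.979) and Zfp740 (0.975), Inpp5d to Uggt1 (0.956) and Ensa (0.946), and Synj1 to Med13 (0.975) and Rpp40 (0.969). Pik3cd was close to Mark2 (0.957), Pik3r1 to Card6 (0.960) and Spata2l (0.952), Pik3ip1 to Rassf2 (0.963) and Mturn (0.958), and Phlpp1 to Taf1b (0.987) and 1110051M20Rik (0.951).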

How the data were processed

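RNA of sorted splenic Treg cells was sequenced from stranded TruSeq libraries, as the labels' protocols state. Raw counts were deposited as 1 table, with a row per gene symbol and a column per mouse. STAR 2.7, DESeq2 and mm10 appear in the submitters' processing notes, with no role given. How reads were assigned to genes, and whether by strand, is not stated there, so reads of overlapping genes may be included. Samples were grouped by title, and all 9 columns matched 1 sample each. No pair of libraries was as close as counting error alone would make it, since the lowest chi-square per degree of freedom was 2.34 (WT 4 and WT 5). Likeness was uneven, at 2.73 for KO 2 and KO 3 but 14.3 for WT 1 and WT 2. This measure cannot show whether libraries share a mouse, because it compares the counts with counting error only.

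CPM is the count per 1000000 deposited counts of the library. The tool was edgeR 4.0.16 (R 4.3.3; quasi-likelihood, robust dispersion, TMM scaling, default expression filter) with Benjamini-Hochberg adjustment over all tested genes and a threshold of 0.05. Errors and 95% intervals were derived from the F statistic of each gene. Log2 CPM for the likeness search added 2 counts, and genes with a mean CPM of at least 5 entered it. The test was checked on simulated data. Positions and lengths come from GENCODE M21, and sequences from RefSeq.

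The 9 genes and the lists were chosen with earlier results of these data known. All 9 are named. From each pathway list the called genes, or else the 2 with the smallest p, are named, then called neighbours and the 2 most similar genes. Some genes that this rule names are not reported here. Alternatives were other scalings, filters, DESeq2 1.42.0, limma-voom (limma 3.58.1), replicate blocks, a marker covariate and leaving out libraries. Floors of 3 counts cover counting error only.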

Additional observations from a re-analysis of the deposited data

How the results depend on the processing

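Of the 20 alternatives run for each gene, Synj1, Inpp5d, Pik3ip1 and Phlpp1 kept their direction and stayed short of the threshold in all 20, while Synj2 kept its call in 19 and Pik3c3 in 10. Without KO 1 and KO 4 together Synj2 was at -0.96, Pik3c3 at -0.16 (both no longer past the threshold), Pik3cd at 0.083 and Pik3r1 at 0.065 (both turned positive), with 0 of the 9 genes and 118 of all genes called. Under the marker covariate Pik3c3 was at -0.17 and not called, Pik3cd at 0.054 and Pik3r1 at 0.078, with 1 of the 9 and 83 of all genes called. Without the low-count filter Pik3c3 was at -0.18 and not called, which left 1 of the 9, with 23836 genes tested in place of 12738. By DESeq2, Inpp4b passed at -0.14, with 6 pathway genes and 910 of all genes called. At a mean CPM of at least 5, 1 pathway gene was called.

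The replicate numbers gave no clear sign of pairs of mice: the correlations of deviations from the group means ran from -0.0594 to 0.102 by title number and from -0.259 to 0.0954 by bracketed library number. Mice with unlike numbers were not compared, so whether the mice were paired is not settled. Block fits kept only the numbers found in both groups, so WT 5 was left out by title number and WT 2 by bracketed number. A replicate block by title number gave 26 called genes, against 117 without WT 5 and with no block. It called 1 of the 9 genes and put Synj2 at -0.82 and Pik3c3 at -0.18 (not called). A replicate block by bracketed number gave 456 genes, against 697 without WT 2 and with no block. It called 1 of the 9 and 3 pathway genes, and put Synj2 at -0.92 and Pik3c3 at -0.18 (not called).

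Leaving out each library in turn gave 97 to 697 genes called, 1 to 3 of the 9 genes and 0 to 1 pathway gene, and log2 fold changes of -0.97 to -0.83 for Synj2, -0.20 to -0.16 for Pik3c3, -0.17 to -0.11 for Inpp4b, -0.11 to -0.05 for Synj1 (-0.05 without WT 1), 0.017 to 0.051 for Inpp5d (0.017 without KO 2, 0.022 without KO 3), -0.064 to 0.022 for Pik3cd and -0.069 to 0.029 for Pik3r1. The count over all genes was 182 with KO 3 left out, 103 for KO 4, 697 for WT 2, 97 for WT 3, 134 for WT 4 and 117 for WT 5. Pik3cd was positive without KO 1 or KO 4, and Pik3r1 without WT 3 or KO 4. The cause of these shifts was not tested. With mean transcript lengths, levels per kilobase in WT ran from 22.0 (Pik3c3) to 319 (Pik3cd).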
